A study of Homo sapiens with 12 samples.

Results

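Fatty acid synthesis and desaturation were read in RNA-seq of 2 human non-small cell lung cancer (NSCLC) lines through 9 genes. These were SREBF1, ACLY, ACSS2, ACACA, FASN, ELOVL6, SCD, FADS1 and FADS2, matched by symbol, and all 9 were among the 19973 genes of the expression table. H460 was established from a large cell lung carcinoma and A549 from a lung adenocarcinoma, and both were labelled wild type. The label does not cover every gene, since the authors state that both lines carry homozygous inactivating mutations of KEAP1. Control cells were non-treated. The others received 10 μM ISP-I for 48 h (isovalerylspiramycin I, a main component of the macrolide antibiotic carrimycin). For cell experiments the authors dissolved ISP-I in the solvent DMSO, and the labels do not say whether these controls received DMSO. Each of the 4 groups had 3 libraries, 12 in all. The comparison asked what ISP-I did to these genes in each line, and whether the lines differed. The dose was the same in both lines, but in the authors' viability assay H460 was the more sensitive to ISP-I. Whether this bears on differences between the lines was not tested.

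Cells build fatty acids in the cytosol from acetyl-CoA. ACLY makes acetyl-CoA from citrate and ACSS2 makes it from acetate. ACACA turns acetyl-CoA into malonyl-CoA, and FASN joins these units into palmitate. ELOVL6 lengthens palmitate to stearate, and SCD puts the first double bond into stearate and palmitate. FADS1 and FADS2 are the delta-5 and delta-6 desaturases, which act on polyunsaturated fatty acids from the diet or medium. SREBF1 encodes SREBP-1, the membrane-bound transcription factor that, once cleaved, switches on most of these genes and its own. Many tumours, lung cancers included, make fatty acids at a high rate.

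In H460, all 9 genes fell after ISP-I, SCD and SREBF1 most. In A549, SREBF1, FADS2, ACLY and ACACA fell, ELOVL6 and FADS1 rose slightly, and FASN, SCD and ACSS2 did not pass the test. SCD, ELOVL6, FADS1 and SREBF1 changed unequally in the lines, by over 2-fold. Levels are given in FPKM, which corrects the reads of a gene for gene length and library total, so genes can be compared per length. FPKM is a share of the RNA in a library, and a lower share and less RNA per cell cannot be told apart from it. Changes are log2 fold changes of FPKM + 1, tested with limma over all genes that averaged 0.1 FPKM or more, with Benjamini-Hochberg adjustment. The term DEG is kept for genes with an adjusted p under 0.05 that also changed by more than 2-fold. A gene that "rose" or "fell" had an adjusted p under 0.05 at any fold change.

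Promoters are shown for 4 of these genes. SREBF1 and ACLY fell in both lines, while SCD and ELOVL6 fell in H460 and had the widest differences between the lines. Sequences come from RefSeq (GRCh38.p14), which matched 8 of the 9 genes with 13 start sites. Each window runs 5′ to 3′ on the strand of the gene, from 250 bases before the start to 50 after it. Capitals mark 3 motifs on either strand: CCAAT (the CCAAT box, bound by NF-Y), CACGTG (the E-box of USF factors) and GGGCGG (the GC box of the Sp family). No match overlapped a match of another motif. The longer SREBP element was not searched.
SREBF1, chr17:17836937-17837236, minus strand: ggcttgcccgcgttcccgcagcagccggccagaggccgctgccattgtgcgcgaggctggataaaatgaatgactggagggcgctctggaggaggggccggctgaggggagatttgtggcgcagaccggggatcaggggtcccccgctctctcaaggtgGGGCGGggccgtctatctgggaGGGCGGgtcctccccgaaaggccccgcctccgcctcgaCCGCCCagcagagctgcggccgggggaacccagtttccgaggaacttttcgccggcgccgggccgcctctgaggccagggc
ACLY, chr17:41918973-41919272, minus strand: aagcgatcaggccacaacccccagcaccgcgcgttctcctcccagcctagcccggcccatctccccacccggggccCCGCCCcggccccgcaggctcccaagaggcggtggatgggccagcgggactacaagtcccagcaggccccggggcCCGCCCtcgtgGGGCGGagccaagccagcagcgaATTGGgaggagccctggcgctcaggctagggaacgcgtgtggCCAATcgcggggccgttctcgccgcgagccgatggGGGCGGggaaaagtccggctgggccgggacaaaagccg
SCD, chr10:100346983-100347282, plus strand: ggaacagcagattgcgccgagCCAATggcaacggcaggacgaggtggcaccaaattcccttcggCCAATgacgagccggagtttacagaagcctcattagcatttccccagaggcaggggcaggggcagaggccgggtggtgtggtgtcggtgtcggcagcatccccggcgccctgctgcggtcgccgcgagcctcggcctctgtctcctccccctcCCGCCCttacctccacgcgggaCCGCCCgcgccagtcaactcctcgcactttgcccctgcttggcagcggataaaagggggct
ELOVL6, chr4:110198566-110198865, minus strand: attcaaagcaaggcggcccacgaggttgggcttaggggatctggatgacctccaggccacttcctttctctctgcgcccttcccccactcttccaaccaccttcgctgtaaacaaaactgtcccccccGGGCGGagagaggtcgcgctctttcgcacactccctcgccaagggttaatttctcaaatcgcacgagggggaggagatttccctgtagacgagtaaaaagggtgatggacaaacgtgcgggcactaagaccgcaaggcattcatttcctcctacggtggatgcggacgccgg

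ACLY and SCD each held 2 CCAAT boxes, and SREBF1 and ELOVL6 held 0 in these windows. The GC box was found 3 times in SREBF1, 4 times in ACLY, 2 times in SCD and 1 time in ELOVL6. Over the 13 windows, CCAAT was in 7, which belong to 5 of the 8 genes, and GGGCGG was in 11, which belong to all 8. CACGTG was in 0 of 13. The windows are not independent, since those of ACLY overlap each other, as do those of FADS2, and some genes have more than 1 window. Over all 35116 promoters of the same length, 34.6% held CCAAT, 45.0% held GGGCGG and 7.26% held CACGTG. These matches describe the letters only and no binding was measured.

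Reads on genes numbered 14225849 to 17874422 per library, and the reads behind every FPKM value could be recovered as whole numbers. Within a group, the chi-square per degree of freedom between a pair of libraries was 2.95 to 92.0, where 1 would be read sampling alone, and no library was a copy. ISP-I libraries 2 and 3 of H460 were farthest apart. A549 control library 3 stood at 26.7 and 30.8 from the other controls of its group, which were 3.30 from each other. Libraries are named by their order within a group in the table. The labels call them replicates without naming separate cultures, so p-values measure the spread between these libraries, which may be technical. In H460, the median change of all 13423 genes tested was -0.15. Scaling the libraries by median-of-ratios, which lines up the bulk of the genes, moved that median by 0.16 to 0.01. Of all genes tested, 15.2% were DEGs lower and 10.5% higher in H460 as deposited, and 11.1% and 14.4% with that scaling. The value with this scaling (called scaled) therefore stands beside each H460 change of the 9 genes. For other genes it is given for some of the calls that it makes or ends. In A549 the same shift was -0.02. Of the epithelial markers, KRT8, KRT18 and KRT19 gave the 5 markers a summed 327.3 to 1252 FPKM in every group. EPCAM and CDH1 were at or near 0 in H460, and in A549 CDH1 fell from 4.90 ± 0.245 to 0.756 ± 0.153 FPKM (SD, n = 3). The alveolar type II markers SFTPC, SFTPB and NKX2-1 summed to at most 0.332 FPKM, so the lines did not carry the defining RNAs of that cell. Leukocyte and endothelial markers summed to at most 0.368 FPKM and fibroblast markers to 0.705 to 1.6 FPKM.

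**Figure D1:**
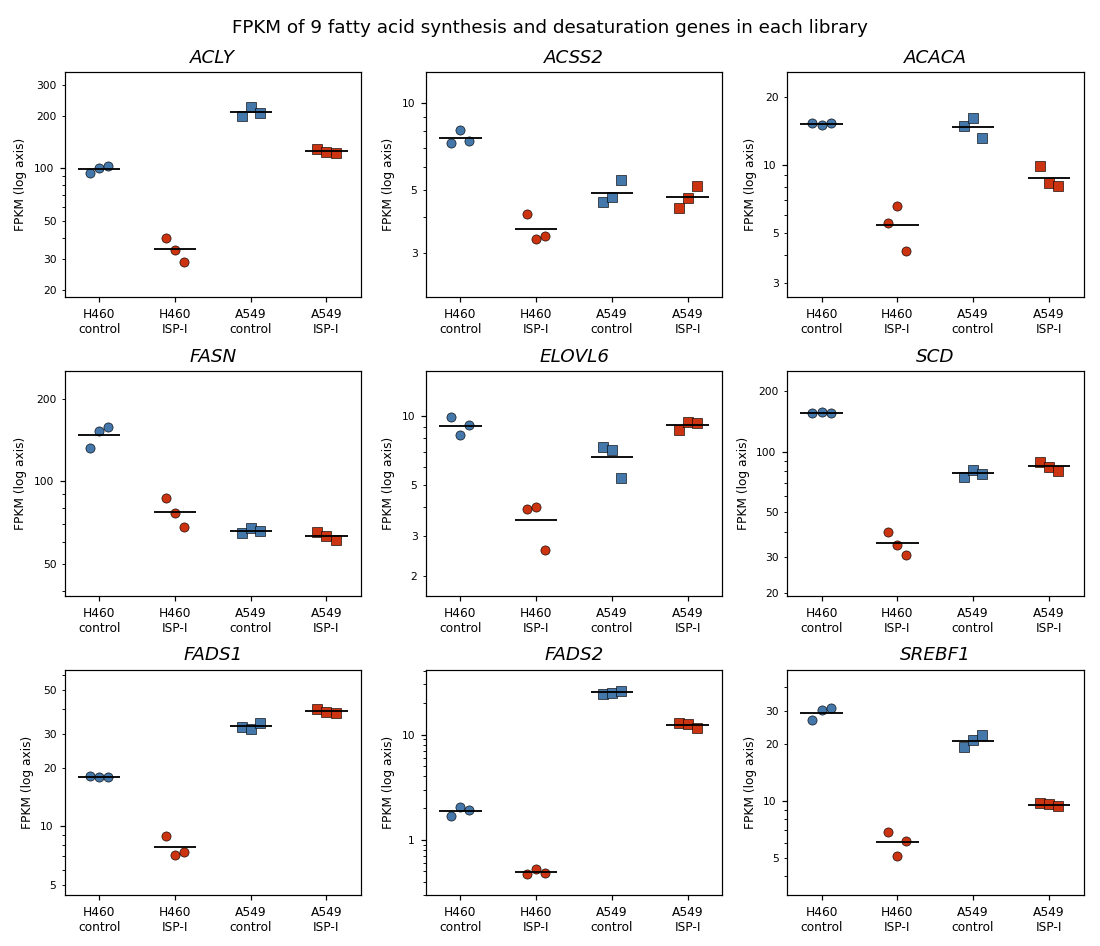
FPKM on a log axis of the 9 genes in each of the 12 libraries, H460 as circles and A549 as squares, controls in blue and ISP-I in red, with a line at the mean of each group of 3. In H460 the ISP-I libraries sit below the controls for all 9 genes, while in A549 this holds for SREBF1, ACLY, ACACA and FADS2.

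SREBF1 (ENSG00000072310, chr17:17810399-17837011, minus strand, hg38 as listed in the table) is the regulator of the group. In H460 its level was 26.7, 30.2 and 30.9 FPKM in the 3 controls and 6.87, 5.09 and 6.17 FPKM after ISP-I. In A549 it was 19.2, 20.9 and 22.2 FPKM in controls and 9.70, 9.59 and 9.41 FPKM after ISP-I. Every ISP-I library lay below every control of its line, and the controls of H460 lay above those of A549. The log2 fold change was -2.11 in H460 (SE 0.131, limma adjusted p 2.88e-06) and -1.04 in A549 (SE 0.0726, adjusted p 1.21e-05). With median-of-ratios scaling these were -1.86 and -1.07. The fall was larger in H460 (interaction -1.07, 95% interval -1.38 to -0.75, adjusted p 6.43e-05). The interaction was -0.79 with that scaling (adjusted p 0.00121) and -0.97 without H460 ISP-I library 2, both under 2-fold. In A549, SREBF1 was just past the 2-fold limit, and without control library 3 its change was -0.99 (adjusted p 2.05e-07), which ends the DEG call. Of its exonic bases, 6.75% are overlapped on the opposite strand by RAI1, and the strand setting of the counting is not given in the sources used here.

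The enzymes that supply acetyl-CoA moved differently from each other. ACLY (ENSG00000131473, chr17:41866917-41930542, minus strand) had 93.6, 100.1 and 102.5 FPKM in H460 controls and 39.8, 33.9 and 29.0 FPKM after ISP-I. In A549 it had 200.5, 223.2 and 208.7 FPKM in controls and 129.6, 124.4 and 122.1 FPKM after ISP-I. ACLY was thus the highest of the 9 genes in A549, and even the ISP-I libraries of A549 lay above the controls of H460. It fell by 1.51 on the log2 scale in H460 (SE 0.141, adjusted p 2.41e-05; -1.24 with median-of-ratios scaling) and by 0.74 in A549 (SE 0.0712, adjusted p 6.03e-05), where it did not reach 2-fold. The fall was larger in H460 (interaction -0.77, adjusted p 0.00123, and -0.46 and 0.0328 scaled). ACSS2 (ENSG00000131069, chr20:34872146-34927962, plus strand) had 7.28, 8.05 and 7.42 FPKM in H460 controls and 4.10, 3.36 and 3.44 FPKM after ISP-I. In A549 it had 4.54, 4.72 and 5.39 FPKM in controls and 4.30, 4.66 and 5.14 FPKM after ISP-I, and the A549 groups overlapped. The change of ACSS2 was -0.89 in H460 (SE 0.115, adjusted p 0.000165; -0.66 with median-of-ratios scaling) and -0.05 in A549 (95% interval -0.26 to 0.17, adjusted p 0.696), and the interaction was -0.85 (adjusted p 0.000227) and -0.59 scaled (adjusted p 0.00529).

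ACACA makes the malonyl-CoA that FASN consumes, and the enzymes differed in A549. ACACA (ENSG00000278540, chr17:37084992-37406836, minus strand) had 15.4, 15.1 and 15.4 FPKM in H460 controls and 5.51, 6.59 and 4.13 FPKM after ISP-I. In A549 it had 14.9, 16.2 and 13.2 FPKM in controls and 9.86, 8.37 and 8.08 FPKM after ISP-I. The controls of both lines overlapped, and ISP-I libraries were lower than controls in each line. ACACA fell by 1.36 in H460 (SE 0.151, adjusted p 6.62e-05; -1.12 with median-of-ratios scaling) and by 0.69 in A549 (SE 0.1, adjusted p 0.00055). The interaction of -0.67 (adjusted p 0.00947) did not pass with median-of-ratios scaling (-0.40, adjusted p 0.0887). FASN (ENSG00000169710, chr17:82078338-82098294, minus strand) had 132.8, 152.2 and 158.0 FPKM in H460 controls and 87.2, 76.9 and 68.3 FPKM after ISP-I. In A549 it had 64.6, 67.5 and 65.9 FPKM in controls and 65.6, 63.2 and 61.1 FPKM after ISP-I. FASN after ISP-I in H460 was therefore still above every A549 library. Its change was -0.92 in H460 (SE 0.143, adjusted p 0.000486; -0.65 with median-of-ratios scaling), short of 2-fold except without ISP-I library 1 (-1.01), and -0.06 in A549 (95% interval -0.20 to 0.08, adjusted p 0.436). The interaction was -0.86 (adjusted p 0.000336), and -0.55 with that scaling (adjusted p 0.0101).

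ELOVL6, the elongase, moved in opposite directions. ELOVL6 (ENSG00000170522, chr4:110045846-110199199, minus strand) had 9.91, 8.25 and 9.16 FPKM in H460 controls and 3.91, 3.99 and 2.60 FPKM after ISP-I. In A549 it had 7.31, 7.11 and 5.39 FPKM in controls and 8.68, 9.49 and 9.34 FPKM after ISP-I. No ISP-I library overlapped the controls in either line, below them in H460 and above them in A549. The change was -1.18 in H460 (SE 0.153, adjusted p 0.000174) and 0.43 in A549 (SE 0.109, adjusted p 0.0102), and the interaction was -1.61 (95% interval -2.03 to -1.18, adjusted p 2.73e-05). With median-of-ratios scaling the H460 change was -0.95, which is no longer a DEG.

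SCD, the delta-9 desaturase, had the widest difference between the lines. SCD (ENSG00000099194, chr10:100347233-100364826, plus strand) had 155.2, 156.9 and 154.8 FPKM in H460 controls and 40.1, 34.7 and 30.8 FPKM after ISP-I. In A549 it had 75.0, 81.1 and 77.6 FPKM in controls and 89.1, 84.0 and 79.9 FPKM after ISP-I. In H460 SCD thus went from the highest of the 9 genes in the controls, by mean, to below every A549 library, while the A549 groups overlapped. SCD fell by 2.12 in H460 (SE 0.132, adjusted p 2.9e-06), or by 1.85 with median-of-ratios scaling. In A549 the change was 0.11 (95% interval -0.05 to 0.27, adjusted p 0.201). The interaction was -2.23 (95% interval -2.54 to -1.93, adjusted p 1.57e-07). The ratio of SCD to FASN within a library needs no scaling between libraries. It was 1.06 ± 0.0975 in H460 controls and 0.454 ± 0.00531 after ISP-I, and 1.18 ± 0.0210 and 1.33 ± 0.0253 in A549 (SD, n = 3).

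FADS1 and FADS2 lie on opposite strands of chromosome 11, and the listed span of FADS2 holds that of FADS1. FADS1 (ENSG00000149485, chr11:61799627-61829318, minus strand) had 18.3, 17.9 and 17.9 FPKM in H460 controls and 8.90, 7.10 and 7.39 FPKM after ISP-I. In A549 it had 32.3, 31.8 and 33.9 FPKM in controls and 40.0, 38.7 and 38.1 FPKM after ISP-I. FADS1 fell by 1.12 in H460 (SE 0.116, adjusted p 4.6e-05) and rose by 0.25 in A549 (SE 0.0613, adjusted p 0.00879), and the groups overlapped in neither line. The interaction was -1.37 (95% interval -1.63 to -1.11, adjusted p 2.07e-06). With median-of-ratios scaling the H460 change was -0.86, which ends the DEG call.

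FADS2 (ENSG00000134824, chr11:61792980-61867354, plus strand) was the gene that separated the untreated lines most. It had 1.68, 2.04 and 1.90 FPKM in H460 controls and 0.477, 0.529 and 0.485 FPKM after ISP-I. In A549 it had 24.6, 25 and 26.0 FPKM in controls and 12.9, 12.7 and 11.6 FPKM after ISP-I. FADS2 fell in each line and its groups did not overlap. The log2 change was -0.94 in H460 (SE 0.0856, adjusted p 2.15e-05; -0.83 with median-of-ratios scaling) and -0.97 in A549 (SE 0.0685, adjusted p 1.25e-05), just short of 2-fold. The 1 added to FPKM shrinks the H460 change of so low a gene. As plain ratios of mean FPKM, ISP-I left 0.265 of the control level in H460 and 0.491 in A549. The A549 change also passed 2-fold with 0.1 added to FPKM (-1.02), quantile normalization (-1.01) and limma voom (-1.06). The H460 values rest on 255 to 327 reads per control library and 76 to 93 per ISP-I library. The change did not differ between the lines on the main scale (interaction 0.03, 95% interval -0.21 to 0.27, adjusted p 0.823), and it was larger in H460 with 0.1 added to FPKM (-0.70, adjusted p 0.00144) and with limma voom on the recovered reads (-0.56, adjusted p 0.0169). Whether the lines differ for FADS2 therefore depends on the scale.

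The balance of the neighbouring desaturases was read as the ratio of FADS2 to FADS1 FPKM within each library. In A549 the ratio was 0.772 ± 0.0123 in controls and 0.317 ± 0.0126 after ISP-I (SD, n = 3). In H460 it was 0.104 ± 0.0111 in controls and 0.0646 ± 0.0105 after ISP-I. The ratio went down in each line with no overlap between the groups. In A549 FADS2 fell while FADS1 rose, and in H460 both fell. Of the exonic bases, 4.64% of FADS2 and 4.79% of FADS1 are overlapped by exons on the opposite strand, the other gene's among them, so reads in those stretches cannot be assigned without strand.

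**Figure D2:**
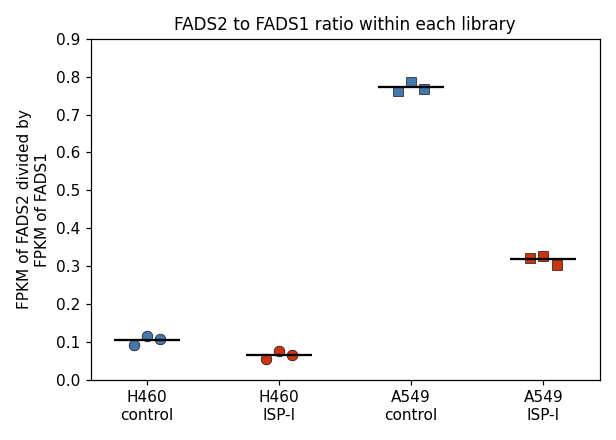
FPKM of FADS2 divided by FPKM of FADS1 in each of the 12 libraries, on a linear axis from 0, with a line at the mean of each group of 3 (circles H460, squares A549, blue control, red ISP-I). A549 controls sit at 0.762 to 0.786 and A549 with ISP-I at 0.303 to 0.327, and H460 stays at or below 0.114.

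Counted together, 6 of the 9 genes were DEGs lower in H460 (SCD, SREBF1, ACLY, ACACA, ELOVL6 and FADS1) and 0 were higher, against the 15.2% and 10.5% of all genes given above. At any fold change 9 of 9 fell and 0 rose, against 41.5% lower and 27.6% higher of all genes. The median change of the 9 genes was -1.18 and that of all genes was -0.15. With 0.1 in place of 1 added to FPKM, ACSS2 (-1.04) and FADS2 (-1.72) were DEGs lower in H460 as well. With median-of-ratios scaling, 4 were DEGs (SCD, SREBF1, ACLY and ACACA), all 9 still fell, and the medians were -0.95 and 0.01. In A549, 1 of 9 was a DEG lower (SREBF1) and 0 were higher, against 3.51% and 4.2% of 13705 genes. Without A549 control library 3 the count was 0. At any fold change 4 of 9 fell and 2 rose there, against 27% and 30.5% of all genes, and the median was -0.06 against 0.02.

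**Figure D3:**
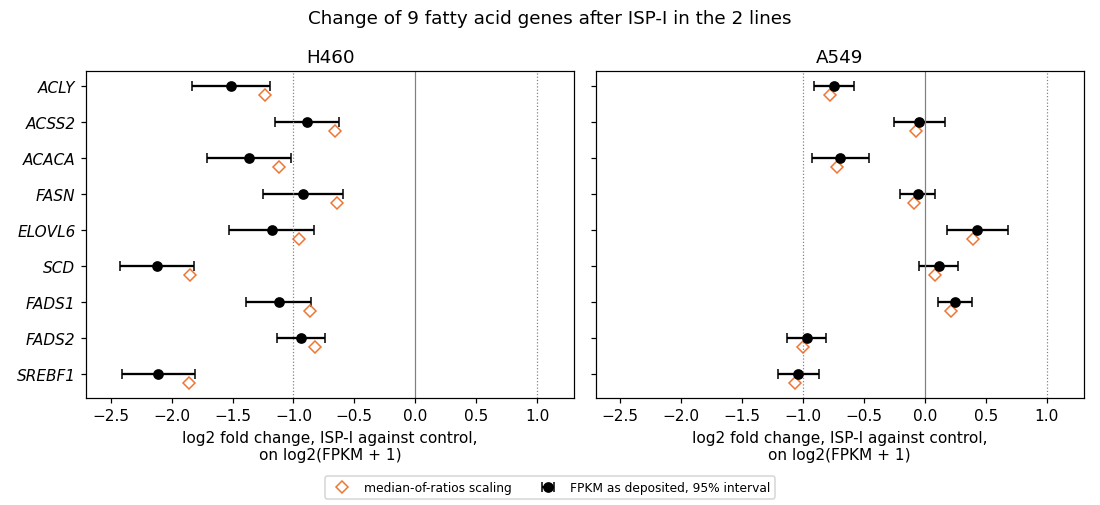
Log2 fold change, ISP-I against control on log2(FPKM + 1), of the 9 genes in H460 (left) and A549 (right). Black points are limma estimates with 95% intervals, orange diamonds are the same with median-of-ratios scaling, and dotted lines mark 2-fold. All 9 points are below 0 in H460, from -2.12 to -0.89, and A549 points range from -1.04 to 0.43.

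The difference between the lines was tested as the interaction of line and treatment over all 12 libraries. The change was lower in H460 by more than 1 on the log2 scale for 4 of 9 genes (SCD, ELOVL6, FADS1 and SREBF1), against 10.1% of 13953 genes. At any size it was lower for 8 of 9, against 34.7% of all genes, with FADS2 as the exception. The median interaction of the 9 genes was -0.86 and that of all genes -0.16. With median-of-ratios scaling these were -0.59 and 0.02. Scaled, the change was lower in H460 for 7 of 9, against 23.6% of all genes. It was lower by more than 1 for 3 of them (SCD, ELOVL6 and FADS1), against 5.91% of all genes. The same 3 were past 1 with quantile normalization, with voom and without H460 ISP-I library 2.

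The untreated lines also differed in these genes. H460 controls were higher than A549 controls in FASN (2.24 times the mean FPKM, log2 difference 1.15, limma adjusted p 1.22e-05), SCD (2 times, 0.99, adjusted p 1.21e-05), ACSS2 (1.55 times, adjusted p 0.00119), SREBF1 (1.41 times, adjusted p 0.00233) and ELOVL6 (1.38 times, adjusted p 0.0179). The ELOVL6 difference did not pass without H460 control library 1 (adjusted p 0.066) or 3 (0.0548). They were lower in FADS2 (0.0744 of A549, -3.19, adjusted p 1.79e-08), ACLY (0.468, -1.09, adjusted p 1.29e-05) and FADS1 (0.552, -0.82, adjusted p 2.48e-05). ACACA did not pass (log2 difference 0.05, 95% interval -0.16 to 0.26, adjusted p 0.681). Thus 2 of 9 genes were DEGs lower in H460 (FADS2 and ACLY) and 1 was higher (FASN), against 8.78% and 5.64% of 13532 genes. Without A549 control library 2, SCD was past 2-fold as well and 2 were higher. At any fold change 3 were lower and 5 higher, ELOVL6 included, against 31.6% and 28.6%. The line cannot be told apart from anything else that differed between the cultures.

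The order of the 4 groups was read from their means of FPKM as deposited, without scaling. SREBF1 ran from H460 controls through A549 controls and A549 with ISP-I down to H460 with ISP-I. ACLY and FADS2 ran from A549 controls through A549 with ISP-I and H460 controls down to H460 with ISP-I. FADS1 was highest in A549 with ISP-I, then in A549 controls, H460 controls and H460 with ISP-I. Neighbours in the order whose ranges overlapped were the A549 groups for FASN, SCD and ACSS2, the controls of both lines for ACACA, and A549 with ISP-I and H460 controls for ELOVL6. H460 with ISP-I was the lowest group for every gene but FASN. Its median-of-ratios factors were 0.842 to 0.855, against 1.01 to 1.09 in the other groups, so scaling raises its levels relative to theirs. ACSS2 was the nearest case, at 3.64 FPKM against 4.70 FPKM in A549 with ISP-I. The order was not recomputed with scaling.

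The genes around this pathway were counted from 8 lists written from general knowledge. Each list is to be read against all genes tested, of which 15.2% were DEGs lower and 10.5% higher in H460 and 3.51% and 4.2% in A549. At any fold change H460 had 41.5% lower and 27.6% higher, and A549 had 27% lower and 30.5% higher. Scaled, the H460 shares at any fold change were 32.3% and 34.7%. SREBP-1 is held in the endoplasmic reticulum by SCAP and INSIG1, and MBTPS1 (site-1 protease) makes the first cut that frees it. Of 20 genes tested for SREBP control, 6 were DEGs lower and 1 higher in H460 (13 and 2 at any fold change, median -0.53). With median-of-ratios scaling 2 were DEGs lower, and 10 were lower and 4 higher at any fold change. In A549, 1 was lower and 1 higher (4 and 6 at any fold change, median 0.09), which lies near the shares of all genes at any fold change. SCAP, the escort of SREBP, fell in H460 from 17.3 ± 1.63 to 5.74 ± 0.765 FPKM, and in A549 from 14 ± 1.39 to 8.84 ± 0.354 FPKM. MBTPS1 fell from 14.6 ± 0.149 to 2.10 ± 0.252 FPKM in H460 (log2 change -2.33, adjusted p 8.66e-07) and from 15.2 ± 0.317 to 5.12 ± 0.0900 FPKM in A549 (-1.41, adjusted p 1.61e-06). INSIG1, which retains SCAP and is itself an SREBP target, rose in A549 from 8.57 ± 0.280 to 34.9 ± 1.06 FPKM (1.90, adjusted p 4.38e-07). In H460 INSIG1 was 8.82 ± 0.709 and 10.6 ± 1.2 FPKM (0.24, adjusted p 0.116; 0.49 and 0.00633 with median-of-ratios scaling), and the lines differed (interaction -1.67, adjusted p 7.28e-07).

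Citrate export and NADPH feed the pathway. Of 13 genes for citrate and NADPH supply, 5 were DEGs lower and 0 higher in H460 (11 and 1 at any fold change, median -0.90; 8 and 2 scaled), and 1 and 0 in A549 (7 and 1, median -0.27; 2 lower without control library 3). SLC25A1, the mitochondrial citrate carrier, fell from 54.9 ± 4.36 to 11.1 ± 1.51 FPKM in H460 (-2.21, adjusted p 2.39e-06) and from 41.3 ± 6.43 to 25.7 ± 0.560 FPKM in A549 (-0.65, adjusted p 0.00103). ME1, which makes NADPH, was 53.1 ± 5.29 and 58.2 ± 4.45 FPKM in H460 (0.13, adjusted p 0.385; 0.41 and 0.0204 with median-of-ratios scaling) and fell slightly in A549 (-0.27, adjusted p 0.0294).

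Of 14 other elongation and desaturation genes tested in H460, 3 were DEGs lower and 1 higher (9 and 2 at any fold change, median -0.38; with median-of-ratios scaling 2 and 2 DEGs, and 5 and 3 at any fold change), and of 15 in A549 0 were DEGs (7 lower and 3 higher at any fold change, median -0.22; with 0.1 added to FPKM 2 and 2 were DEGs). SCD5, the other human delta-9 desaturase, fell in both lines, from 4.86 ± 0.371 to 0.494 ± 0.210 FPKM in H460 (-1.98, adjusted p 3.39e-06) and from 5.54 ± 0.512 to 2.53 ± 0.207 FPKM in A549 (-0.89, adjusted p 8.22e-05). ELOVL7, an elongase of long saturated fatty acids, rose in H460 from 0.207 ± 0.0133 to 5.49 ± 0.785 FPKM (2.42, adjusted p 7.97e-07), up to its A549 level of 4.55 ± 0.672 and 5.65 ± 0.468 FPKM (0.27, adjusted p 0.0655). TECR, the reductase that ends the elongation cycle, fell by 0.67 in H460 (adjusted p 0.00654; -0.42 and 0.0503 with median-of-ratios scaling) and by 0.59 in A549 (adjusted p 0.00115), and HSD17B12, the ketoreductase of that cycle, had 0.20 in H460 (adjusted p 0.223; 0.41 and 0.0252 scaled) and 0.15 in A549 (adjusted p 0.229).

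Mitochondria have a separate fatty acid synthesis that feeds lipoic acid. Of its 9 genes, 1 was a DEG lower in H460 (NDUFAB1) and 5 fell at any fold change (0 rose, median -0.54), while in A549 0 were DEGs, 0 fell and 5 rose (median 0.25). The H460 DEG was lost with median-of-ratios scaling and without ISP-I library 2. With that scaling 3 fell in H460 (median -0.31) and 3 rose in A549. The 5 that fell in H460 lie near the 41.5% of all genes. NDUFAB1, the mitochondrial acyl carrier protein, went from 96.8 ± 12.2 to 45.1 ± 20.5 FPKM in H460 (-1.17, adjusted p 0.00529) and from 45.3 ± 5.06 to 52.3 ± 3.29 FPKM in A549 (0.21, adjusted p 0.0913). MCAT, the malonyl transferase, fell by 0.80 in H460 (adjusted p 0.00816) and rose by 0.25 in A549 (adjusted p 0.032; 0.22 and 0.0746 with median-of-ratios scaling). OXSM, the condensing enzyme, had -0.09 in H460 (adjusted p 0.464) and rose by 0.52 in A549 (adjusted p 0.000433).

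**Figure D4:**
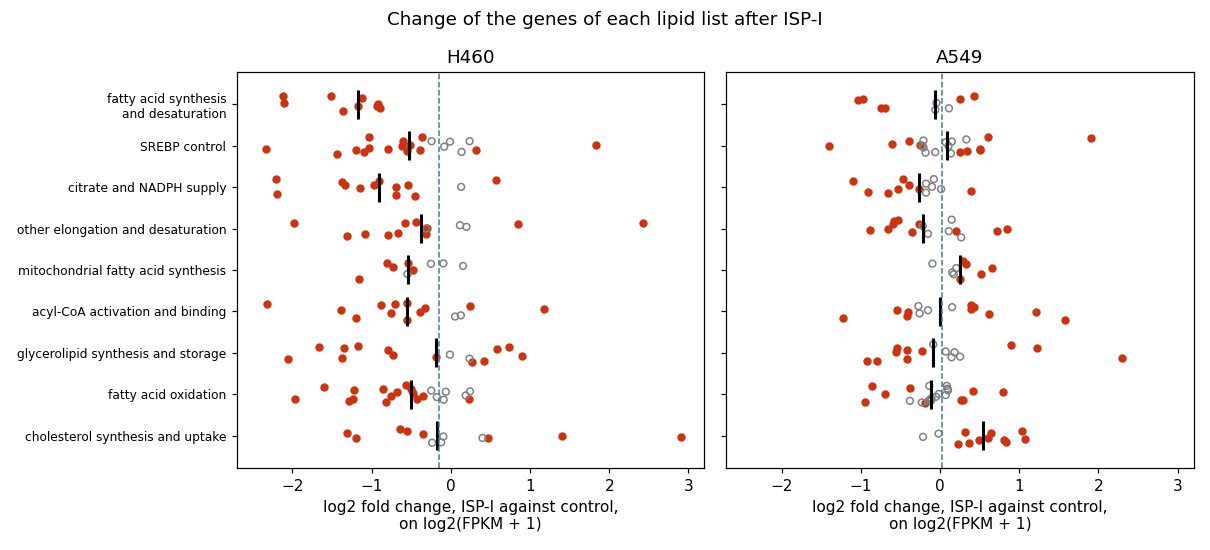
Log2 fold change on log2(FPKM + 1) of each tested gene of the 9 fatty acid genes and the 8 other lists, in H460 (left) and A549 (right). Filled points had a limma adjusted p under 0.05, open points did not, black bars are list medians and the dashed line is the median of all genes. The 9 fatty acid genes have a median of -1.18 in H460 and -0.06 in A549, and the cholesterol list -0.18 and 0.55 (0.05 in H460 with median-of-ratios scaling).

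Once made, fatty acids are activated with CoA and built into lipids. Of 14 genes for acyl-CoA activation and binding, 3 were DEGs lower and 1 higher in H460 (10 and 2 at any fold change, median -0.56; 8 and 3 scaled; 0 higher without ISP-I library 2) and 1 and 2 in A549 (4 and 6, median -0.00; 1 higher without control library 3). SLC27A4, a fatty acid transporter and acyl-CoA synthetase, fell from 37.9 ± 3.85 to 6.75 ± 0.722 FPKM in H460 (-2.33, adjusted p 1.55e-06) and had -0.15 in A549 (adjusted p 0.303). ACSL3, an acyl-CoA synthetase of lipid droplets, rose from 17 ± 3.94 to 52.0 ± 1.72 FPKM in A549 (1.58, adjusted p 6.04e-05) and had 0.05 in H460 (adjusted p 0.813). ACSL1, another acyl-CoA synthetase, rose by 0.43 in A549 (adjusted p 0.00124) and had 0.13 in H460 (adjusted p 0.336; 0.37 and 0.0155 with median-of-ratios scaling).

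Of 15 genes for glycerolipid synthesis and storage, 5 were DEGs lower and 0 higher in H460 (8 and 5 at any fold change, median -0.19; with median-of-ratios scaling 4 and 1 DEGs, and 7 and 6 at any fold change) and 0 and 2 in A549 (7 and 3, median -0.09; 1 lower without control library 1). PLIN2, the coat protein of lipid droplets, rose in both lines. It went from 2.84 ± 0.210 to 6.20 ± 0.885 FPKM in H460 (0.90, limma adjusted p 0.000269) and from 7.73 ± 0.557 to 42.0 ± 0.634 FPKM in A549 (2.30, adjusted p 3.59e-07). The rise was larger in A549 (interaction -1.40, adjusted p 4.94e-06). In H460 PLIN2 was close to the 2-fold limit as deposited, and its scaled value is not given here. GPAM, the first acyltransferase of glycerolipid synthesis, fell by 1.17 in H460 (adjusted p 4.45e-05; -0.99 scaled) and had 0.25 in A549 (adjusted p 0.131). LPIN3, a phosphatidate phosphatase, fell by 2.05 in H460 (adjusted p 1.86e-06) and by 0.23 in A549 (adjusted p 0.0335). DGAT1, the last enzyme of triglyceride synthesis, fell by 0.79 in H460 (adjusted p 0.000575) and by 0.55 in A549 (adjusted p 0.00603).

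Fatty acid oxidation is the opposite path. Of 21 genes tested in H460, 5 were DEGs lower and 0 higher (14 and 1 at any fold change, median -0.51; with median-of-ratios scaling 4 and 0 DEGs, and 10 and 3 at any fold change), and of 22 in A549 0 were DEGs (5 lower and 4 higher at any fold change, both under the shares of all genes, median -0.11; 1 lower without control library 3, and 2 lower with 0.1 added to FPKM). CPT1A, the entry step into mitochondria, fell from 17.4 ± 1.16 to 6.86 ± 1.3 FPKM in H460 (-1.24, adjusted p 8.93e-05; -0.99 scaled) and rose slightly in A549 (0.29, adjusted p 0.0186). ETFDH, which hands electrons to the respiratory chain, fell by 1.97 in H460 (adjusted p 4.62e-06) and by 0.85 in A549 (adjusted p 5.97e-05). PDK4, which restrains pyruvate dehydrogenase, fell by 0.86 in H460 (adjusted p 0.00368) and by 0.94 in A549 (adjusted p 0.000363), and CPT2, the partner of CPT1A inside mitochondria, had -0.35 in H460 (adjusted p 0.0278; -0.21 and 0.175 with median-of-ratios scaling) and -0.02 in A549 (adjusted p 0.872).

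Cholesterol synthesis and uptake, whose genes answer mainly to SREBP-2, gave other counts than the 9 fatty acid genes. Of 12 genes, 2 were DEGs lower and 2 higher in H460 (5 and 3 at any fold change, median -0.18). The H460 counts at any fold change lie near the shares of all genes, 41.5% lower and 27.6% higher. The median of all genes there was -0.15. With median-of-ratios scaling 1 and 2 were DEGs, 2 were lower and 4 higher at any fold change, and the median turned to 0.05. In A549, 0 were lower and 2 higher, and 10 rose and 0 fell at any fold change (median 0.55, with 0 DEGs without control library 3). Of all genes in A549, 30.5% rose and 27% fell. HMGCS1, which makes HMG-CoA, rose from 5.41 ± 0.421 to 47.4 ± 8.12 FPKM in H460 (2.91, adjusted p 9.87e-07) and from 16 ± 2.43 to 34.6 ± 0.757 FPKM in A549 (1.08, adjusted p 6.84e-05).

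Likeness of pattern was measured by Pearson r of log2(FPKM + 1) over the 12 libraries among the 6650 genes that averaged 5 FPKM or more. The genes most like SREBF1 were TAOK2 (r 0.998), AP1M1 (0.995) and TCF3 (0.994). For SCD they were RNF41 (0.987), PEX10 (0.984) and KLHL12 (0.983), and for FASN they were SRPX (0.986), TTLL12 (0.986) and HHIPL2 (0.985). The libraries form 4 groups, so these values describe the group means more than independent points. None of these 9 neighbours was on the fatty acid list or the 8 other lists.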

How the data were processed

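RNA was sequenced from 3 control and 3 ISP-I libraries each of H460 and A549. The authors used FastQC for filtering, HISAT2 for alignment to hg38 and HTSeq 0.9.1 for counting, and deposited FPKM per gene and library. The annotation version and the strand setting are not given in the sources used here. The deposited table also holds gene length, in bases, which is no sample's measurement. The columns name the line, the treatment and a running number within the line, so libraries were grouped by line and treatment. From the table, 4 broken lines were left out, and 1924 genes had no reads. Whole reads were recovered from FPKM and length for 100% of the values (tolerance 0.05), 14225849 to 17874422 per library. FPKM was divided by median-of-ratios factors in an alternative. These were 0.842 to 0.855 for treated H460 and 1.01 to 1.09 for the other groups.

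limma 3.58.1 in R 4.3.3, with its trend option, was run on log2(FPKM + 1) of every gene that averaged 0.1 FPKM or more in the libraries compared. P-values were adjusted by Benjamini-Hochberg over all genes tested. Each line, the untreated lines and the interaction over all 12 libraries were fitted. Scripts used Python 3.11.15, pandas 2.3.3 and numpy 2.4.6 and were tested on simulated data. Alternatives were adding 0.1 in place of 1, a filter at 1 FPKM or none, median-of-ratios scaling, quantile normalization, limma voom on recovered reads (at least 10 reads in 3 libraries), a single fit, an adjusted p under 0.01, any fold change, and leaving out each library. Genes named beside the 9 were, from each list, the first 2 as written and in each line the largest change among those that averaged 1 FPKM or more. Some genes that this rule names are not reported here. For likeness, the 3 genes with the highest r to FASN, SCD and SREBF1 were named. EPCAM, CDH1 and the keratins came from marker lists. Members, lists and rules were chosen with earlier results of these data known. Exon overlap was taken from GENCODE v44.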

Additional observations from a re-analysis of the deposited data

Results flagged for a closer look

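Of the 9 fatty acid genes, 4 changed differently in the lines by more than 2-fold in the interaction test over all 12 libraries (limma with Benjamini-Hochberg adjustment). The change in H460 minus the change in A549, on the log2 scale, was -2.23 for SCD (adjusted p 1.57e-07), -1.61 for ELOVL6 (adjusted p 2.73e-05), -1.37 for FADS1 (adjusted p 2.07e-06) and -1.07 for SREBF1 (adjusted p 6.43e-05). SCD fell in all 3 H460 libraries relative to the controls and had 0.11 in A549, ELOVL6 and FADS1 fell in H460 and rose in A549, and SREBF1 fell in each line. SREBF1 was under 2-fold, which left 3 genes, with median-of-ratios scaling (-0.79), quantile normalization (-0.76) and voom (-0.85) and without H460 ISP-I library 2 (-0.97). The cause was not tested.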

How the results depend on the processing

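In H460, all 117 alternative values of the 9 genes kept their direction and an adjusted p under 0.05. The number of DEGs lower there was 4 (median-of-ratios scaling) to 9 (any fold change). With a pseudocount of 0.1, ACSS2 (-1.04) and FADS2 (-1.72) became DEGs lower in H460, and FASN (-0.93) did not. In A549, 115 of 117 values kept direction and side of the threshold, for the interaction 155 of 162 and for the untreated lines 105 of 108. DEGs lower in A549, 1 as reported, numbered 2 with a pseudocount of 0.1, quantile normalization or voom, 4 at any fold change, and 0 to 1 leaving out a library. DEGs higher in A549, 0 as reported, numbered 2 at any fold change. The interaction count of 4 became 3 with median-of-ratios scaling, quantile normalization or voom, 3 to 4 leaving out a library, and 8 at any size. Genes higher in untreated H460, 1 as reported, numbered 2 with median-of-ratios scaling or voom, 5 at any fold change, and 1 to 2 leaving out a library. The FADS2 interaction turned to -0.70 with a pseudocount of 0.1 and -0.56 with voom, and ranged from -0.017 (without H460 control library 1) and -0.012 (without A549 ISP-I library 3) to 0.074 when libraries were left out. ACSS2 in A549 turned to 0.016 without control library 3 and 0.0061 without ISP-I library 1, the lowest value being -0.10, and ACACA in the untreated lines to -0.026 without A549 control library 3, the highest being 0.11, none past the threshold. The ACACA interaction lost its call with median-of-ratios scaling (adjusted p 0.0887), quantile normalization (0.0662) and voom (0.075). ELOVL6 in the untreated lines lost it without H460 control library 1 (0.066) or 3 (0.0548). Of the list counts, recomputed after the data were seen, 36 moved, either by over 1.5 times or to or from 0, and 380 did not. Apart from the effect of the settings' own construction, causes were not tested. No paired analysis was possible because the columns carry numbers that run over a line and not the replicate numbers of the labels. Depth limits FADS2 in H460 most, at 76 to 93 reads per ISP-I library. With 3 libraries per group, small changes such as those of FASN and ACSS2 in A549 are bounded by their intervals only.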
